A study of Mus musculus with 12 samples.

Results

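A set of 7 genes of T cell co-signalling were followed in mouse macrophage cultures: Cd80, Cd86, Cd274, Pdcd1lg2, Icosl, Cd40 and Cd83. They were chosen by symbol, and all 7 were found among the 16570 genes of the deposited table. RNA was sequenced from 12 libraries, 3 in each of 4 groups, of bone marrow-derived macrophages of C57BL/6J mice aged 6 to 8 weeks. All 4 groups were grown with M-CSF, the survival factor of macrophages, at 50 ng/mL during the 2 days of treatment. The RHC80267 group received RANKL at 100 ng/mL with 1 µM RHC80267, an inhibitor of diacylglycerol lipase, and the BMS309403 group received RANKL at 100 ng/mL with 1 µM BMS309403, which blocks the lipid chaperone FABP4. The RANKL group received 100 ng/mL of RANKL, the cytokine that drives osteoclast formation, and the M-CSF group received M-CSF alone. For the inhibitor groups the treatment protocol writes RANK, and the series' design text RANKL. Whether the 3 libraries of a group are separate animals or cultures is not given in the labels. The p-values therefore rest on a spread between libraries that may be technical. No vehicle is named for the groups without inhibitor.

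A T cell needs a second signal beside the recognition of antigen, and the antigen-presenting cell gives it through surface proteins of the B7 family. CD80 and CD86 bind the activating receptor CD28 and the inhibitory receptor CTLA-4, ICOSL binds ICOS, and PD-L1 (Cd274) and PD-L2 (Pdcd1lg2) bind the inhibitory receptor PD-1. CD40 is a receptor of the TNF receptor family through which T cells activate macrophages, dendritic cells and B cells, and CD83 is a surface protein of activated antigen-presenting cells that stabilises MHC class II and CD86 there. Interferons and NF-kB signals are known inducers of several of these genes in macrophages.

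The genes lie on 5 chromosomes of the mouse genome (GRCm38). Cd274 (gene 60533, chromosome 19, 29362107 to 29388095) and Pdcd1lg2 (gene 58205, chromosome 19, 29410919 to 29484254) are neighbours on the plus strand, 22.8 kb apart. Cd86 (gene 12524, chromosome 16, 36568956 to 36666158, minus strand) and Cd80 (gene 12519, chromosome 16, 38457430 to 38496324, plus strand) share a chromosome. Cd40 (gene 21939, chromosome 2, 165055614 to 165071654), Icosl (gene 50723, chromosome 10, 78069368 to 78079525) and Cd83 (gene 12522, chromosome 13, 43785112 to 43803133) are on the plus strand.

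The start regions of the 4 genes with an entry in the RefSeq table used are shown, so that the neighbours Cd274 and Pdcd1lg2 can be compared with Cd80 and Icosl. Each is the plus strand from 250 bases before to 50 bases after a transcript start, from RefSeq on GRCm38.p6: chr19:29367188-29367487 for Cd274, chr19:29410669-29410968 for Pdcd1lg2, chr16:38458683-38458982 for Cd80 and chr10:78069118-78069417 for Icosl. The Cd274 and Cd80 windows lie inside the gene spans given above, downstream of the first base of the gene. Other starts of these genes were not searched. Capitals mark matches on either strand to 5 searched motifs.
Cd274: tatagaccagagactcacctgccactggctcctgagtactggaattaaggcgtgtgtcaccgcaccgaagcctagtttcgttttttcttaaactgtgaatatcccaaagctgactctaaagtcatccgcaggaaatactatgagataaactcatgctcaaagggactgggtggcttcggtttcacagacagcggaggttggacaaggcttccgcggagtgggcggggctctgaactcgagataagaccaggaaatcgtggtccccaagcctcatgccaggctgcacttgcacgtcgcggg
Pdcd1lg2: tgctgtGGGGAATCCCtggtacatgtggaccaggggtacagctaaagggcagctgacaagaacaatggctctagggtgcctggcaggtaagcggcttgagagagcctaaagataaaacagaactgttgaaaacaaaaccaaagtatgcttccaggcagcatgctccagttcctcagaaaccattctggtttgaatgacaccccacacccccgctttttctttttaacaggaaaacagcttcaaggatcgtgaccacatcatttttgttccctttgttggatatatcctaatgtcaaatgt
Cd80: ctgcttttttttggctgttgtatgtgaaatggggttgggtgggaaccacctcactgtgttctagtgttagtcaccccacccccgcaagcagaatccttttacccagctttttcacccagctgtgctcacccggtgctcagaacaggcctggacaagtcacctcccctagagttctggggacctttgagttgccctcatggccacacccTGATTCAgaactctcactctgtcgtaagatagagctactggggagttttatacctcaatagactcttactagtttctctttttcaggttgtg
Icosl: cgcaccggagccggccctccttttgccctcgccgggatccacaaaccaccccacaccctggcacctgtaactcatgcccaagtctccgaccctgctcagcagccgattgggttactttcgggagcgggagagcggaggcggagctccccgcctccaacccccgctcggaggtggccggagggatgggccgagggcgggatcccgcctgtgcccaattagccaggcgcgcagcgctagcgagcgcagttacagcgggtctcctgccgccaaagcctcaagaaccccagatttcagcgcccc

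The motifs were AP-1 (TGANTCA), the interferon-stimulated response element (GAAA, any 2 bases, GAAA), the gamma-activated site (TTCNNNGAA), PU.1 (GAGGAAGT) and the NF-kB consensus. Among 32851 such windows of mouse genes, 7.81%, 3.44%, 8.3%, 3.2% and 4.51% held a match to them, in that order. The Cd80 window held TGATTCA, a match to the AP-1 pattern, which lets any base stand in the middle. That pattern is its own reverse complement, so a match on both strands follows from the pattern. The Pdcd1lg2 window held the NF-kB match GGGGAATCCC on both strands. Neither match overlapped another motif. The Cd274 and Icosl windows held none of the 5. The Icosl window was the richest in G and C of these 4, at 68% with 26 CpG, against 52.7% with 15 CpG for Cd274, 49.7% with 3 for Cd80 and 46% with 3 for Pdcd1lg2. The median over all windows was 52.7% with 7 CpG.

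Levels are CPM, read counts relative to the TMM-scaled library size, as the mean ± SD over 3 libraries. A gene was called at an adjusted p below 0.05 in edgeR's quasi-likelihood test over 12168 genes, with Benjamini-Hochberg adjustment. Only a called gene is said to have risen or fallen. All 7 genes passed the filter on low counts. Pdcd1lg2 passed through the groups with RANKL, since the M-CSF libraries held 4 to 7 reads of it, and a gene that passes only where it is high has to differ. Macrophage markers were high in all groups: the summed CPM of 14 of them was 23900 to 24800 with RHC80267, 32200 to 33600 with BMS309403, 28500 to 30500 with RANKL and 38000 to 38600 with M-CSF. Lyz2 alone gave most of that sum, at 14300 ± 527 CPM with RHC80267 and 19100 ± 821 CPM with RANKL. Of the 14, 3 rose and 6 fell with RHC80267 relative to RANKL (median log2 fold change −0.03), where 26.9% of all genes rose and 23.0% fell. The summed CPM of 14 osteoclast markers was 18200 to 20500 with RHC80267, 8180 to 9130 with BMS309403, 9780 to 11900 with RANKL and 983 to 1030 with M-CSF. All 14 rose with RHC80267 relative to RANKL (median log2 fold change 0.75), where 26.9% of all genes rose. With BMS309403 relative to RANKL, 9 of them fell and 0 rose (median −0.31), where 3.74% of all genes fell and 3.49% rose. Total expected counts were 17760844 to 18344989 per library. The libraries are bulk samples, so fewer cells that carry a transcript and less of it per cell cannot be told apart.

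By group mean, most of the 7 transcripts were lower with RHC80267 than in any other group, with Pdcd1lg2 and Cd274 as exceptions. Relative to RANKL alone, 6 of the 7 genes were called, all of them lower with RHC80267. Of all genes tested, 49.9% were called, 23.0% lower and 26.9% higher. Cd86, Cd83 and Cd40 fell most, and Cd80, Cd274 and Icosl fell by less. The median log2 fold change of the 7 was −0.34, against 0.02 over all genes tested. The call of Icosl rests on few libraries, and without RANKL replicate 1 or 2 or RHC80267 replicate 2 it was lost.

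BMS309403 moved a few of the same transcripts by a small amount in the other direction. Relative to RANKL alone, 3 of the 7 genes were called, and Cd86, Cd274 and Cd83 rose. Of all genes tested, 7.23% were called, 3.49% higher and 3.74% lower. The median log2 fold change of the 7 was 0.21, against −0.0056 over all genes. Without RANKL replicate 1 only Cd86 kept its call, and 1 of the 7 was called. In the direct comparison of the inhibitors at 1 µM, 5 of the 7 were called, all lower with RHC80267 than with BMS309403: Cd86, Cd83, Cd40, Cd274 and Cd80. Of all genes tested, 55.5% were called, 25.5% lower and 30.1% higher. The inhibitor groups share their RANKL libraries as reference.

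With RANKL some of the genes were higher and others lower. Relative to M-CSF alone, Cd86, Cd274 and Pdcd1lg2 rose and Icosl, Cd83 and Cd40 fell, where 31.4% of all genes tested rose and 29.8% fell. A count of 6 of 7 called is to be read against 61.2% of all genes called in that comparison. The median log2 fold change of the 7 was −0.0040, against 0.0028 over all genes. The inhibitor groups were also set against M-CSF, the reference that the RANKL comparison shares. Pdcd1lg2, which passed the filter through the groups with RANKL, is counted among the called genes in each comparison with M-CSF. With BMS309403, 6 of the 7 were called, with Cd86, Cd274 and Pdcd1lg2 higher and Icosl, Cd83 and Cd40 lower, where 57.0% of all genes were called, 29.7% higher and 27.3% lower. Without M-CSF replicate 1 the call of Pdcd1lg2 there was lost. With RHC80267, 6 of the 7 were called, Pdcd1lg2 higher and Cd83, Icosl, Cd40, Cd86 and Cd80 lower, where 70.4% of all genes were called, 36.0% higher and 34.4% lower. Without RHC80267 replicate 1, Cd274 was called as well, so that 2 were higher. The largest of these differences was in Cd83, 5.86-fold lower with RHC80267 than with M-CSF (edgeR adjusted p = 2.23e-16).

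**Figure D1:**
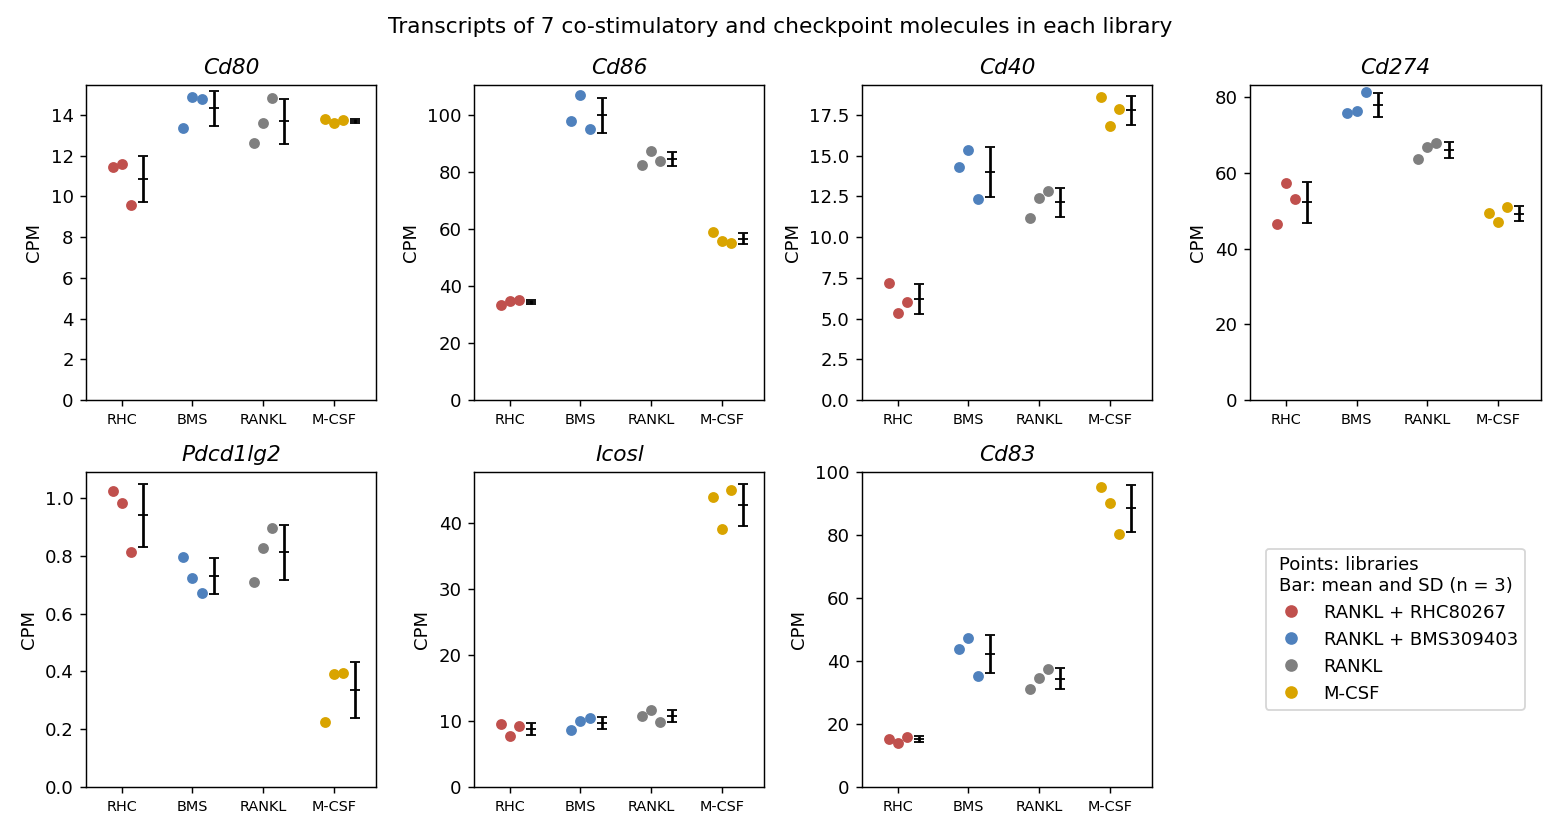
Level of each of the 7 genes in CPM (linear axis from 0) in each library, with points for libraries and bars for the mean and SD of 3. Cd86 and Cd274 are highest with BMS309403, Icosl and Cd83 are highest with M-CSF, and Cd86, Cd83 and Cd40 are lowest with RHC80267.

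**Figure D2:**
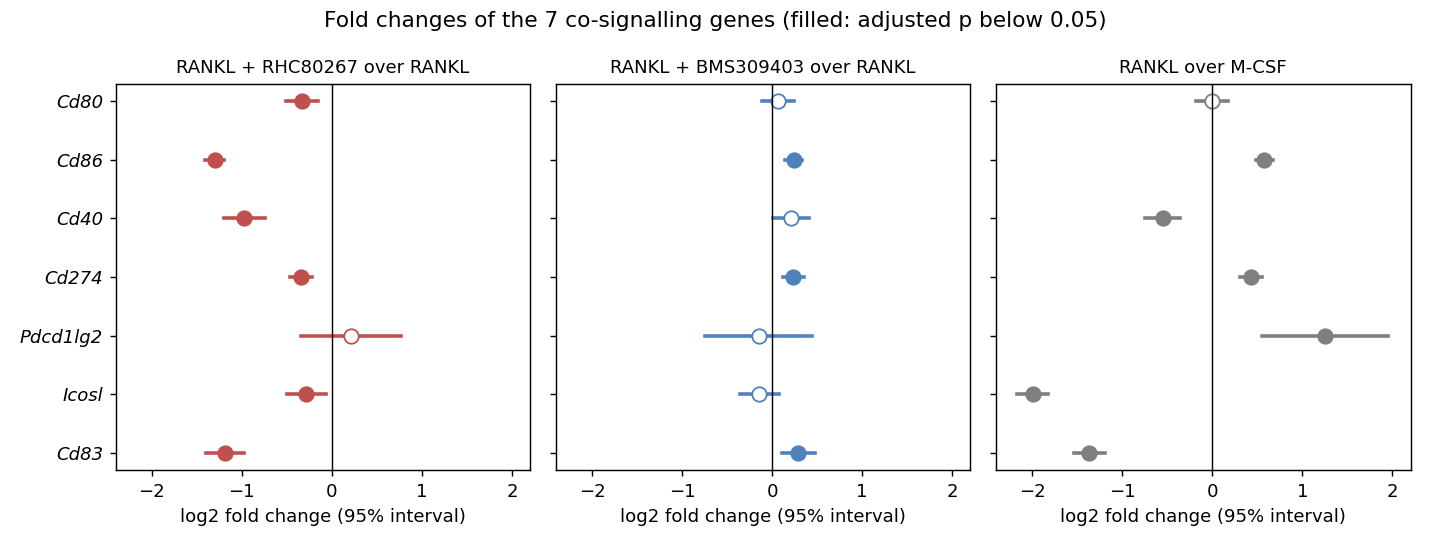
Log2 fold change of each gene with its 95% interval, for RHC80267 over RANKL, BMS309403 over RANKL and RANKL over M-CSF. Filled points passed an adjusted p of 0.05: 6 genes with RHC80267, all lower, 3 with BMS309403, all higher, and 3 higher and 3 lower with RANKL.

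Cd86 encodes the CD28 ligand with the higher level of the pair. It was at 33.4, 34.7 and 34.9 CPM with RHC80267, at 97.7, 106.7 and 95 CPM with BMS309403, at 82.4, 87.3 and 83.7 CPM with RANKL and at 58.7, 55.7 and 55.2 CPM with M-CSF. The libraries of no 2 groups overlapped, and the order of the groups was BMS309403, RANKL, M-CSF and RHC80267. Cd86 fell 2.46-fold with RHC80267 relative to RANKL, by 1.3 on the log2 scale (SE 0.05, edgeR adjusted p = 1.28e-14), which placed it at rank 22 by p among all genes tested. With BMS309403 it rose by 0.24 ± 0.05 (SE, edgeR adjusted p = 0.0023), and with RANKL it rose by 0.58 ± 0.05 relative to M-CSF (edgeR adjusted p = 6.61e-10). The RHC80267 cultures also lay below M-CSF alone, by −0.72 ± 0.05 (edgeR adjusted p = 5.29e-11). Between the inhibitors the log2 difference was −1.54 ± 0.05 (RHC80267 over BMS309403, edgeR adjusted p = 3.15e-16). Each of these calls held in every alternative fit and with any library left out.

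Cd80, which encodes the other CD28 ligand, moved little. It was at 11.4, 11.6 and 9.56 CPM with RHC80267, at 13.3, 14.9 and 14.8 CPM with BMS309403, at 12.6, 13.6 and 14.8 CPM with RANKL and at 13.8, 13.6 and 13.8 CPM with M-CSF. The RHC80267 libraries lay below all others, and the other groups overlapped. Cd80 fell by 0.33 with RHC80267 relative to RANKL (SE 0.09, edgeR adjusted p = 0.0034). It was not called with BMS309403, at a log2 change of 0.07 (95% interval −0.11 to 0.24), nor with RANKL relative to M-CSF, at −0.0040 (95% interval −0.18 to 0.17). On the deposited FPKM scale, which divides by transcript length, Cd86 exceeded Cd80 by a ratio of 2.33 ± 0.457 with RHC80267, 5.43 ± 0.107 with BMS309403, 4.53 ± 0.544 with RANKL and 3.05 ± 0.0476 with M-CSF (SD, n = 3). These ratios do not rest on reads alone. For Cd80, RANKL replicate 3 had 265 reads and 9.56 FPKM, and BMS309403 replicate 3 had 264 reads and 7.75 FPKM.

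The receptors of CD80 and CD86 were looked at in the same libraries. Cd28 was itself present, at 49.1 ± 1.71 CPM with RHC80267, 81.5 ± 2.86 CPM with BMS309403, 68.8 ± 7.68 CPM with RANKL and 134 ± 4.85 CPM with M-CSF. It fell by 0.49 with RHC80267 relative to RANKL (SE 0.06, edgeR adjusted p = 1.34e-06), rose by 0.24 ± 0.06 with BMS309403 (edgeR adjusted p = 0.0147) and fell by 0.96 with RANKL relative to M-CSF (SE 0.06, edgeR adjusted p = 2.84e-12). Transcripts of the CD3 chains that define T cells were near 0: Cd3e summed to 1 read over the RHC80267 group, 0 over BMS309403, 2 over RANKL and 1 over M-CSF, and Cd3d and Cd3g were each at 0 to 4 reads per group. Another of the 11 T cell markers in the table, Cd5, moved with the groups, at 6.29 ± 0.75 CPM with RHC80267, 3.78 ± 0.0402 CPM with BMS309403, 4.36 ± 0.833 CPM with RANKL and 0.355 ± 0.232 CPM with M-CSF. It rose by 0.53 ± 0.16 with RHC80267 relative to RANKL (SE, edgeR adjusted p = 0.0085) and by 3.59 ± 0.28 with RANKL relative to M-CSF (edgeR adjusted p = 2.60e-10), and its part in the results was not tested. Of 3 T cell markers tested, Cd5 was the 1 called in each of these comparisons. The inhibitory receptors Ctla4 and Pdcd1 had 9 and 3 reads with RHC80267, 3 and 5 with BMS309403, 1 and 5 with RANKL, and 3 and 2 with M-CSF. Cd40lg, the ligand of CD40, had at most 1 read in a group, and Icos was at 0.867 to 1.01 CPM on average with no call in the comparisons with RANKL.

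Cd274, which encodes PD-L1, was at 46.5, 57.3 and 53.0 CPM with RHC80267, at 75.9, 76.2 and 81.5 CPM with BMS309403, at 63.7, 66.8 and 67.8 CPM with RANKL and at 49.5, 47.0 and 50.9 CPM with M-CSF. The BMS309403 libraries lay above and the RHC80267 libraries below those with RANKL alone, and the RHC80267 and M-CSF libraries overlapped. Cd274 fell by 0.34 with RHC80267 relative to RANKL (SE 0.06, edgeR adjusted p = 5.87e-05). It rose by 0.24 ± 0.06 with BMS309403 (edgeR adjusted p = 0.0130), a call lost without RANKL replicate 1 (0.21, edgeR adjusted p = 0.0934) or BMS309403 replicate 3 (0.21, edgeR adjusted p = 0.0505). With RANKL it rose by 0.43 ± 0.06 relative to M-CSF (edgeR adjusted p = 2.00e-06). RHC80267 over M-CSF was at 0.09 (95% interval −0.04 to 0.21) and not called, except without RHC80267 replicate 1 (0.17, edgeR adjusted p = 0.0125).

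Pdcd1lg2, which encodes PD-L2, was measured by few reads. Its expected counts were 19, 18 and 15 with RHC80267, 14, 13 and 12 with BMS309403, 13, 15 and 16 with RANKL and 4, 7 and 7 with M-CSF. Every library with RANKL had more reads than any with M-CSF alone, and the groups with RANKL lay close together. It rose by 1.25 ± 0.34 with RANKL relative to M-CSF (SE, edgeR adjusted p = 0.0030), whereas the authors' deposited table lists a q-value of 0.0802 for that comparison. Since it passed the filter through the groups with RANKL, that call was not independent of the filter and is no separate support for a rise. Neither inhibitor gave a call relative to RANKL, at 0.21 with RHC80267 (95% interval −0.35 to 0.77) and −0.15 with BMS309403 (−0.74 to 0.44), intervals that include changes of about the size seen in Cd274. On the FPKM scale Cd274 exceeded Pdcd1lg2 by a ratio of 42.5 to 61.1 with RHC80267, 89.7 to 115 with BMS309403, 70.2 to 84.4 with RANKL and 116 to 210 with M-CSF.

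Icosl, which encodes the ligand of ICOS, had the strongest fall of the 7 with RANKL. It was at 9.48, 7.68 and 9.18 CPM with RHC80267, at 8.63, 10 and 10.4 CPM with BMS309403, at 10.7, 11.6 and 9.79 CPM with RANKL and at 43.9, 39.1 and 45.1 CPM with M-CSF. The 3 groups with RANKL lay far below M-CSF and close to each other. Icosl fell 3.99-fold with RANKL relative to M-CSF, by 2.00 on the log2 scale (SE 0.08, edgeR adjusted p = 4.55e-15), and 0.452% of the genes tested had a lower value. RHC80267 lowered it further, by −0.29 ± 0.10 relative to RANKL (SE, edgeR adjusted p = 0.0276). That call was lost without RANKL replicate 1 (edgeR adjusted p = 0.0535) or 2 (0.110) or RHC80267 replicate 2 (0.151). BMS309403 over RANKL was at −0.14 (95% interval −0.36 to 0.07) and RHC80267 over BMS309403 at −0.14 (−0.36 to 0.08), and neither was called.

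Cd40 was at 7.16, 5.34 and 6.03 CPM with RHC80267, at 14.3, 15.3 and 12.3 CPM with BMS309403, at 11.2, 12.4 and 12.8 CPM with RANKL and at 18.6, 16.8 and 17.9 CPM with M-CSF. The M-CSF libraries were the highest and the RHC80267 libraries the lowest, and those with RANKL and with BMS309403 overlapped. Cd40 fell 1.96-fold with RHC80267 relative to RANKL, by 0.97 on the log2 scale (SE 0.11, edgeR adjusted p = 2.55e-07). With RANKL it fell by 0.55 relative to M-CSF (SE 0.09, edgeR adjusted p = 2.35e-05). BMS309403 over RANKL was at 0.21 (95% interval 0.0058 to 0.40), which did not pass the adjusted threshold (edgeR adjusted p = 0.235).

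Cd83, the activation marker, was at 15.3, 14.1 and 16.0 CPM with RHC80267, at 43.8, 47.2 and 35.4 CPM with BMS309403, at 31.0, 34.7 and 37.5 CPM with RANKL and at 95.2, 90.0 and 80.4 CPM with M-CSF. M-CSF was the highest group and RHC80267 the lowest, and BMS309403 replicate 3 lay among the RANKL libraries. Cd83 fell 2.28-fold with RHC80267 relative to RANKL, by 1.19 on the log2 scale (SE 0.10, edgeR adjusted p = 3.86e-09), and fell by 1.36 with RANKL relative to M-CSF (SE 0.08, edgeR adjusted p = 2.69e-12). It rose by 0.29 ± 0.09 with BMS309403 (edgeR adjusted p = 0.0461). Limma-voom (adjusted p = 0.0603) and a replicate block (edgeR adjusted p = 0.0535) ended that call. So did leaving out RANKL replicate 1 (log2 change 0.22), RANKL replicate 2 (0.31), BMS309403 replicate 1 (0.27) or BMS309403 replicate 2 (0.21).

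The make-up of the 7 transcripts shifted with the treatment. Their summed FPKM was 56.4 ± 0.784 with RHC80267, 112 ± 6.16 with BMS309403, 99.5 ± 3.76 with RANKL and 126 ± 5.95 with M-CSF (SD, n = 3). Cd83 gave 15.2% ± 1.19 of that sum with RHC80267, 20.2% ± 1.92 with BMS309403, 19.1% ± 0.993 with RANKL and 37.9% ± 2.15 with M-CSF. Cd274 gave 28.7% ± 2.53 with RHC80267, 20.6% ± 1.93 with BMS309403, 20.1% ± 0.296 with RANKL and 11.6% ± 0.675 with M-CSF. The ratio of Cd86 to Cd274, of a co-stimulatory to a checkpoint transcript, was 1.08, 0.908 and 0.984 with RHC80267, 1.93, 2.10 and 1.75 with BMS309403, 1.94, 1.96 and 1.84 with RANKL and 1.78, 1.77 and 1.62 with M-CSF. The RHC80267 libraries lay below all others in that ratio, and the log2 change relative to RANKL was −1.3 for Cd86 and −0.34 for Cd274. The ratio of Cd83 to Cd86 was 0.536 ± 0.0367 with RHC80267, 0.513 ± 0.0512 with BMS309403, 0.497 ± 0.0444 with RANKL and 1.91 ± 0.114 with M-CSF, so on that measure the groups with RANKL overlapped.

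**Figure D3:**
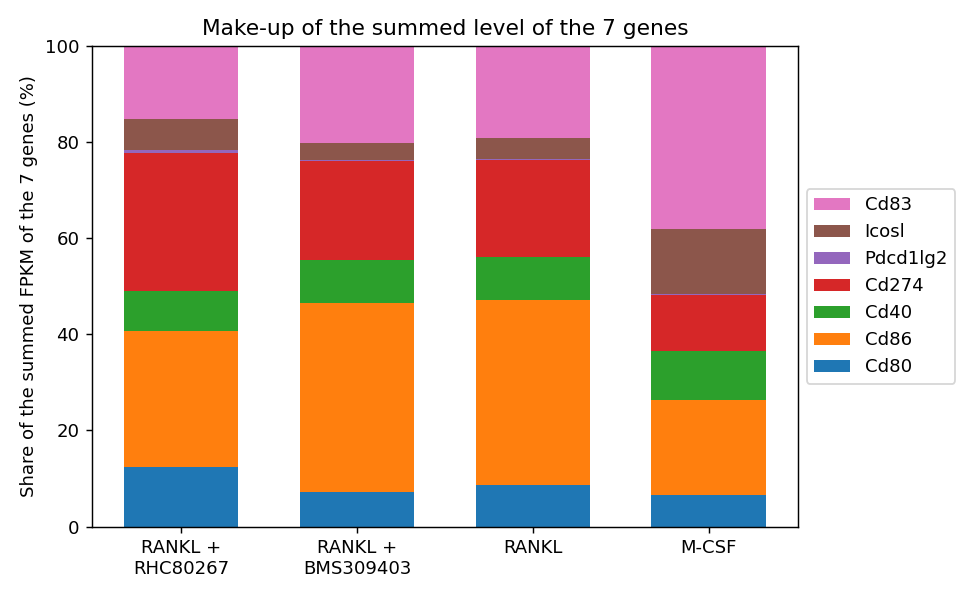
Mean share (%) of each gene in the summed FPKM of the 7 genes, per group of 3 libraries. Cd83 takes 37.9% with M-CSF and 15.2% with RHC80267, while Cd274 takes 11.6% with M-CSF and 28.7% with RHC80267.

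Other genes of T cell co-signalling were grouped in 4 lists. In the list of other co-signalling ligands of the B7 and TNF families, with a few of their receptors and adhesion partners, 24 of 27 were in the table and 22 were tested. With RHC80267 relative to RANKL, 13 fell and 4 rose (median −0.33, against 0.02 for all genes), where 23.0% of all genes tested fell and 26.9% rose. Without RANKL replicate 2, 2 rose. Lgals9, a secreted lectin that binds the inhibitory receptor TIM-3, was at 53.6 ± 1.33 CPM with RHC80267 and 122 ± 7.93 CPM with RANKL (−1.18 ± 0.06, edgeR adjusted p = 2.41e-13). Cd47, the signal against phagocytosis, fell by 0.35, its receptor Sirpa by 0.28 and Cd24a by 0.75. With BMS309403, where 3.49% of all genes rose and 3.74% fell, Lgals9 rose by 0.38 and Cd48, an adhesion molecule of leukocytes, by 0.17, and Cd200, the ligand of an inhibitory myeloid receptor, fell by 0.48 (median −0.04). Leaving out RANKL replicate 1 left 1 gene higher and ended the call of Cd200. Leaving out BMS309403 replicate 2 also left 1 higher. There were 2 lower when RANKL replicate 3 or BMS309403 replicate 1 was left out. With RANKL relative to M-CSF, 10 rose and 3 fell (median 0.0079), a number of calls near the 61.2% of all genes called in that comparison. Cd200 was at 39.5 ± 4.87 CPM with RANKL and 0.635 ± 0.318 CPM with M-CSF (5.94 ± 0.20, edgeR adjusted p = 1.65e-16), Pvr rose by 0.47, and Vsir, the checkpoint VISTA, and Lgals9 fell by 0.47 and 0.45.

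In the list of interferon receptors, JAK kinases, STATs and IRFs that lead to PD-L1, with a few inhibitors of that signalling, all 17 genes were tested. The counts pool activating and inhibitory genes. With RHC80267, 9 fell and 1 rose (median −0.18), against 23.0% of all genes lower and 26.9% higher. The number risen was 2 with a replicate block or without RANKL replicate 3 or RHC80267 replicate 1. Stat2 and Irf9, transcription factors of the type I interferon response, fell by 1.17 and 0.81, and the kinase gene Jak2 fell by 0.54. With BMS309403, 5 were called, all higher (median 0.09, against 3.49% of all genes higher), among them Stat2 at 0.38, Irf1 at 0.27 and Irf9 at 0.23. The number was 3 when either RANKL replicate 1 or BMS309403 replicate 2 was left out. With RANKL relative to M-CSF, 13 fell and 1 rose (median −0.26), where 29.8% of all genes fell and 31.4% rose, with Socs3, a feedback inhibitor, at −2.47 and Irf8 at −0.84. In that comparison Cd274 rose, as given above.

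The list of CD40 and NF-kB signalling had 22 genes, all of them tested. With RHC80267, 10 rose and 8 fell (median 0.03), where 26.9% of all genes rose and 23.0% fell, with Birc2, a ubiquitin ligase of TNF receptor complexes, at 0.57 and the inhibitor Nfkbia at 0.53. With BMS309403, 4 were called, all lower (median −0.10, against 3.74% of all genes lower), with Traf1, an adaptor of TNF receptors, at −0.31 and Tnfaip3 at −0.28. That number was 2 with no filter, with only the groups compared or without BMS309403 replicate 2, and 1 without RANKL replicate 1. With RANKL relative to M-CSF, 16 rose and 4 fell (median 0.35), where 31.4% of all genes rose and 29.8% fell. Traf1 was at 66.2 ± 3.56 CPM with RANKL and 5.88 ± 0.243 CPM with M-CSF (3.49 ± 0.07, edgeR adjusted p = 2.90e-20), while Cd40 itself fell.

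The fourth list holds regulators of the proteins' turnover, and all 12 were tested. March1, the ubiquitin ligase that removes CD86 and MHC class II from the surface, was at 68.6 ± 4.26 CPM with RHC80267, 83.3 ± 4.89 CPM with BMS309403, 71.1 ± 0.682 CPM with RANKL and 122 ± 2.2 CPM with M-CSF. It fell by 0.78 with RANKL relative to M-CSF (SE 0.05, edgeR adjusted p = 3.73e-12), rose by 0.23 ± 0.05 with BMS309403 (edgeR adjusted p = 0.0060) and was not called with RHC80267. Cmtm6, which keeps PD-L1 protein at the surface, fell by 0.68 with RANKL and by 0.21 with RHC80267. In all, 3 rose and 2 fell with RHC80267, 1 rose with BMS309403, and 2 rose and 5 fell with RANKL. These counts of 12 lie near the shares of all genes called in the 3 comparisons, 49.9%, 7.23% and 61.2%.

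**Figure D4:**
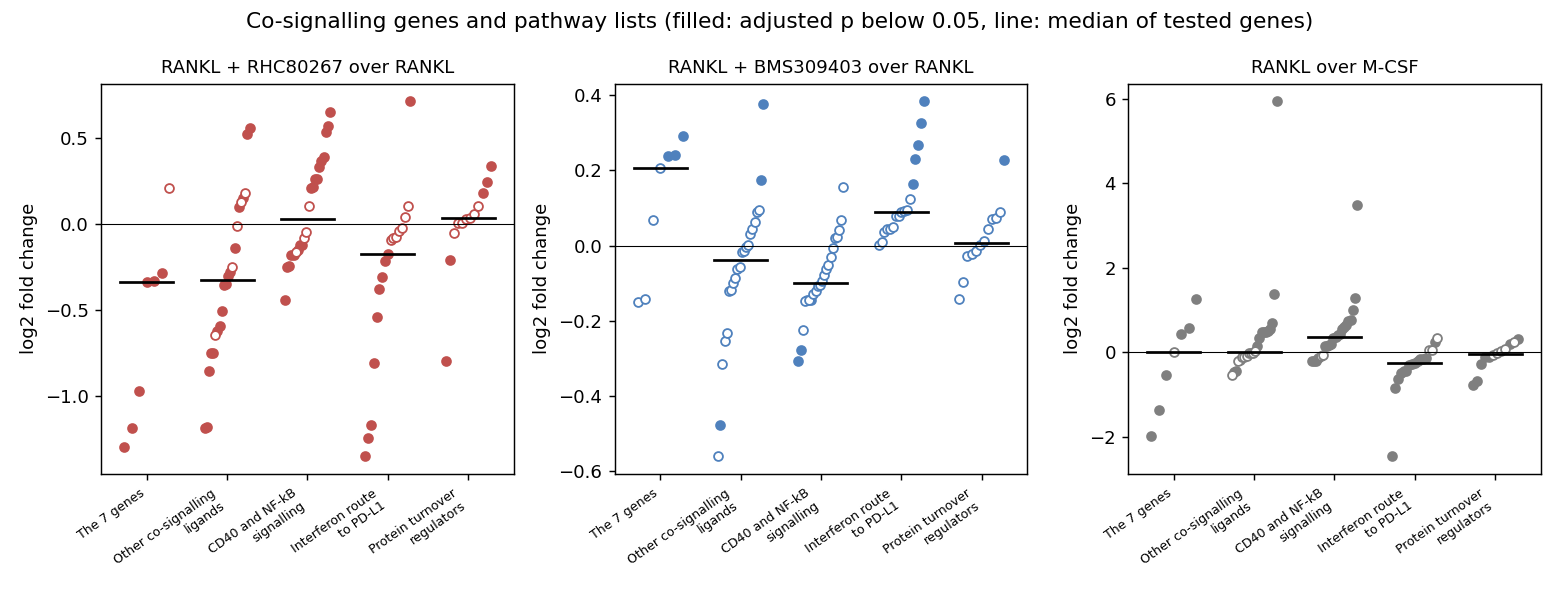
Log2 fold change of each tested gene of the 7 and of the 4 lists, for RHC80267 over RANKL, BMS309403 over RANKL and RANKL over M-CSF. Vertical axes differ between the panels. With RHC80267 the median is −0.34 for the 7 genes and −0.18 for the interferon list, and with BMS309403 it is 0.21 and 0.09.

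Dendritic cells, B cells and neutrophils also carry several of these transcripts, and some of their markers moved with RHC80267. The summed CPM of 14 dendritic cell markers was 48.4 to 54.2 with RHC80267, 67 to 76.3 with BMS309403, 73.9 to 82.1 with RANKL and 46.6 to 62.3 with M-CSF. Of the 10 tested, 6 fell with RHC80267 relative to RANKL, where 23.0% of all genes fell and 26.9% rose, among them Ccr7 at 1.12 ± 0.131 CPM with RHC80267 and 2.71 ± 0.442 CPM with RANKL. Not called in that comparison were Zbtb46 (log2 change 0.10), Flt3 (−0.27), Batf3 (−0.27) and Clec9a (−0.38). Ccl17 was at 0 with RANKL and with M-CSF, and Lamp3 was at 0 with M-CSF. The summed CPM of 11 B cell markers, of which none was at 0, was 21.8 to 23.1 with RHC80267, 31 to 33.6 with BMS309403, 25.6 to 31.8 with RANKL and 26.8 to 27.9 with M-CSF, and 4 of 7 tested fell and 1 rose with RHC80267 relative to RANKL. The sum of 12 neutrophil markers was 877 to 1240 with RHC80267, 1720 to 1860 with BMS309403, 1680 to 1880 with RANKL and 1380 to 1910 with M-CSF, and 8 of 12 fell with RHC80267. Stromal markers, 11 in the table, summed to 26.8 to 83.7 CPM with RHC80267, 18.4 to 24.1 with BMS309403, 17.6 to 30.1 with RANKL and 20.3 to 29 with M-CSF. Of 8 tested, 4 rose and 1 fell with RHC80267 relative to RANKL, with the collagen genes Col3a1 (2.19 ± 0.48) and Col1a1 (1.98 ± 0.44) among those that rose. Col1a1 was at 21.1, 6.1 and 4.72 CPM with RHC80267 and at 4.32, 1.16 and 2.57 CPM with RANKL, so RHC80267 replicate 1 stood above the others. Without that library, 6 of the 7 co-signalling genes were still called lower with RHC80267 than with RANKL. The RHC80267 libraries that remain still held more Col1a1 than any with RANKL, so that fit does not remove the stromal difference. The 11 T cell markers summed to at most 8.45 CPM. The osteoclast markers, given above, all rose with RHC80267 relative to RANKL. The part of these cells and of the osteoclast shift in the lower Cd86, Cd83 and Cd40 was not tested.

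The genes whose profile over the 12 libraries was most like that of each of the 7 were taken from 12161 other genes by the root mean square difference of centred log2 CPM. For Cd83 these were the chemokine gene Ccl4 (0.13), the transcription factor gene Mef2c (0.14) and the cytokine gene Tnf (0.16). Tnf was at 3.58 ± 0.446 CPM with RHC80267, 9.30 ± 1.35 CPM with BMS309403, 8.51 ± 0.586 CPM with RANKL and 24.3 ± 2.75 CPM with M-CSF. For Cd40 they were Bst2, an interferon-induced antiviral membrane protein, at 0.095, Stap1 at 0.11 and Kcnk13 at 0.11. For Cd274 they were Pltp (0.061), Pld3 (0.077) and Ptms (0.080). Pltp was at 634 ± 40.9 CPM with RHC80267, 921 ± 20.6 CPM with BMS309403, 802 ± 61.5 CPM with RANKL and 604 ± 16.1 CPM with M-CSF. For Cd86 the nearest were B4galt5, Stk40 and Cytip (0.14 each), for Icosl the mitochondrial arginase gene Arg2 (0.21), 2900026A02Rik (0.21) and Lamb2 (0.22), for Pdcd1lg2 Uros, Abcg3 and Cox7b (0.13 to 0.15) and for Cd80 Zfp655, Rragc and Zfp992 (0.063 to 0.076).

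In the authors' deposited table of DESeq2 comparisons, the log2 fold changes of Cd86 relative to RANKL are −1.32 with RHC80267 and 0.25 with BMS309403. Its q-values are below 0.05 for 5 of the 7 genes with RHC80267 relative to RANKL, 2 with BMS309403 and 5 with RANKL relative to M-CSF. Those are fewer than the 6, 3 and 6 called here. The share of all genes that pass in the authors' comparisons was not taken, so these counts are not read as a result about the 7. Icosl with RHC80267 (DESeq2 q = 0.115) and Cd83 with BMS309403 (DESeq2 q = 0.0698) do not pass there.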

How the data were processed

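RNA-seq of 12 libraries was analysed from the table the authors deposited. The authors deposited expected counts per gene, headed as read counts: 9.49% to 9.89% of a library's entries are fractional, as RSEM gives them. FPKM values, which the authors deposited beside them, were used for levels per transcript length. TPM values and normalised read counts (a scaled signal), also deposited by the authors, were not used here. The authors' own log2 fold changes and q-values come from DESeq2, per the file headers. The submitters' processing notes name Bowtie2, RSEM 1.3.1 and DESeq2 1.4.5. Their order and any filter are not stated there. Of the 7 genes, 5 have the same start and end in RefSeq's GRCm38.p6.

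Expected counts were rounded to whole numbers. The filterByExpr function, applied by group, removed 4402 genes and kept 12168. TMM factors set the library sizes (0.978 to 1.04). The 12 libraries entered 1 quasi-likelihood fit in edgeR 4.0.16 (R 4.3.3) with group as its term, and each comparison is a contrast in it. The SE is the log2 fold change over the root of F, and 95% intervals come from it. All p-values are 2-sided. The tools named above include none for molecular identifiers, so a read count alone covers counting error at best. The tests take their spread from the differences between libraries.

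As alternatives, each library was left out in turn, and the fit was repeated with DESeq2 1.42.0, limma-voom (limma 3.58.1), RLE factors, a replicate block, the compared groups alone, no filter, and a filter of 1 CPM or more in 3 libraries or more. Replicate libraries differed beyond counting noise in every pair. The 7 genes and the lists were chosen with earlier results of these data known. The text names the 7 genes, up to 4 genes per list and comparison with the smallest p, receptors and markers where a count rests on them, and the 3 genes nearest to each of the 7. Start regions of Cd86, Cd40 and Cd83 were not used here. A gene of the interferon list is not reported here by name.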

Additional observations from a re-analysis of the deposited data

How the results depend on the processing

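Of 287 log2 fold changes of the 7 genes under alternatives that kept all libraries, 284 kept their direction and their side of the threshold, and of 252 with a library left out, 240 did. The exceptions with all libraries were Cd83 with BMS309403 relative to RANKL, under limma-voom and the replicate block, and Pdcd1lg2 with BMS309403 relative to M-CSF under DESeq2 (1.12, adjusted p = 0.0550), which was also lost without M-CSF replicate 1 (0.89, edgeR adjusted p = 0.0671). The only reversed value was Cd80 with RANKL relative to M-CSF, whose range with a library left out was −0.065 to 0.051 and which was above 0 without RANKL replicate 1 (edgeR adjusted p = 0.655). With a library left out, the number of the 7 genes called was 5 to 6 for RHC80267 against RANKL, 1 to 3 for BMS309403 against RANKL, 5 to 5 for RHC80267 against BMS309403, 6 to 6 for RANKL against M-CSF, 5 to 6 for BMS309403 against M-CSF and 6 to 7 for RHC80267 against M-CSF. The count of 1 came without RANKL replicate 1, when 152 of all genes rose and 111 fell with BMS309403 relative to RANKL, against 425 and 455 with all libraries, and the cause was not tested. Across the libraries left out, 152 to 473 of all genes rose and 111 to 538 fell in that comparison. For RHC80267 against RANKL 2666 to 3094 rose and 2482 to 2668 fell. For RHC80267 against BMS309403 the ranges were 3008 to 3369 and 2807 to 3196. Against M-CSF they were 3507 to 3608 and 3320 to 3447 with RANKL, and 3349 to 3533 and 2986 to 3153 with BMS309403. With RHC80267 over M-CSF they were 3992 to 4257 and 3970 to 4145. Same-numbered libraries of different groups had deviations that correlated at −0.092 to 0.0936, and other-numbered ones at −0.0722 to 0.105. No pairing by replicate number was seen, but 3 libraries a group cannot exclude a weak one. With a replicate block 6 of the 7 genes were called for RHC80267 against RANKL, 2 for BMS309403 against RANKL, 5 for RHC80267 against BMS309403 and 6 for each comparison with M-CSF. The share of all genes called with that block is not given here, so those counts show only whether calls held. Pdcd1lg2 was not tested at 1 CPM in at least 3 libraries. Its 4 to 19 reads per library limit what can be said of it.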
